A study of Mus musculus with 18 samples.

Results

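The genes described are mouse Zfp zinc finger genes that lie in genomic clusters. They were chosen as protein-coding genes of GENCODE M21 whose symbol is Zfp followed by a digit, with at least 1 other such gene starting within 200 kb on the same chromosome. Of 394 protein-coding Zfp genes, 246 met that rule, and 237 of these had 10 or more reads in at least 2 of the 18 libraries. They form 55 clusters on 15 chromosomes, 25 of them pairs, and 148 of the 237 lie in 16 clusters of 5 or more. The count table holds 54446 genes in all. Zfp784, Zfp965 and Zfp455 passed the count filter most narrowly, with 79, 55 and 152 reads summed over all libraries. Zfp968, Zfp973 and Zfp92 fell just below it, with 31, 62 and 71 reads.

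Zinc finger proteins of this kind bind DNA through an array of repeated C2H2 fingers, each contacting a few bases. Many carry a KRAB domain that recruits TRIM28, which in turn brings the H3K9 methyltransferase SETDB1, and in embryonic stem cells a known task of these proteins is to silence endogenous retroviruses. The genes arose by repeated local duplication, so neighbours can be near copies of each other.

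The libraries hold ribosome-depleted nuclear RNA of mouse embryonic stem cells of the C57BL/6 strain, 2 in each of 9 groups. In the first experiment, cells labelled Ythdc1_cKO and Ythdc1_Control (a conditional knockout of the nuclear m6A reader YTHDC1 and its control) were cultured for 48 h and then taken at 0, 3 or 6 h of 5 µg/ml actinomycin D, which blocks transcription. In the second, cells labelled Mettl3_KO1 and Mettl3_KO2 (knockouts of the m6A methyltransferase METTL3) were compared with Mettl3_Control without the drug. All groups were grown with LIF, CHIR99021, PD0325901 and 15% serum, and 0.1 µl of ERCC spike-in RNA was added to the RNA. The labels do not say how the conditional knockout was induced, whether KO1 and KO2 are single clones, or whether replicates were separate cultures, so p-values measure only the spread between these libraries.

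Reads on genes numbered 4950973 to 30989044 per library. In the libraries labelled Ythdc1_cKO at 0 h Ythdc1 was at 143 and 120 CPM (read counts scaled to library size by the trimmed mean of M values, TMM), against 145 and 132 CPM in control (adjusted p 0.557, edgeR). At 6 h of the drug it was at 19.1 and 18.7 CPM in cKO, against 51.2 and 47.2 CPM in control. Mettl3 was at 32.6 and 31.2 CPM in KO1 and at 22.7 and 22.1 CPM in KO2, against 36.5 and 31.9 CPM in control (adjusted p 0.316 and 7.42e-10, edgeR). Counts over a whole gene need not show a deletion of part of it, and the knockouts are named here as their labels name them. The cKO libraries at 3 h held 277 and 272 spike-in reads per 1e+06 gene reads, against 1100 and 1100 in control at 3 h and 772 to 1890 over all other groups of that experiment, and results at 3 h depend on the scaling. Embryonic stem cell markers were present in every group, at a summed 3000 to 4720 CPM over 10 genes.

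By sequence the clustered genes shared features but ranged widely. Among the 231 that could be tested in the Ythdc1 experiment, the median transcript length was 3150 bases (472 to 13200). The median longest exon was 2600 bases and the median number of fingers 12 (0 to 30), and 226 of 231 encoded 3 or more. The median longest exon was 2480 bases in Zfp genes without a Zfp neighbour within 200 kb and 1280 bases in other protein-coding genes tested. The median GC content was 42.2% (34.6 to 68.7%) against 51.0% in other protein-coding genes. A KRAB box pattern was found in the translation of 137 of the 237 members; it misses some diverged boxes, since Zfp445 and Zfp819, known as KRAB proteins, did not match it. The letters GGACT, a common form of the motif methylated by METTL3, occurred at least once in 84.8% of these transcripts and in 91.4% of other coding transcripts, with medians of 0.753 and 1.07 per kb.

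Near-identical finger repeats can make reads of some members hard to assign. Each unit below runs 78 bases from the first cysteine codon of a finger, and the capitals mark the linker that joins it to the next finger. The sequences are coding sequence of GENCODE M21 transcripts (mm10), and these 5 genes are among those named for a large change in the results.
Zfp97: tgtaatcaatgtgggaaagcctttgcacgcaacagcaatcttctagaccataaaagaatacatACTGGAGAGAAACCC
Zfp960: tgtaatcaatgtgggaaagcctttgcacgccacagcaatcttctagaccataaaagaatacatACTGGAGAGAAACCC
Zfp748: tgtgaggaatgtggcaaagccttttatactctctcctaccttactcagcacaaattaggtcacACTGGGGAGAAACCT
Zfp981: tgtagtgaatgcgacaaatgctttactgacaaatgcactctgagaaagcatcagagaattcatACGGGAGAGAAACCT
Zfp600: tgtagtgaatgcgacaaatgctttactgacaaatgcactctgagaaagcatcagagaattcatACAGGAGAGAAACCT
The units of Zfp97 and Zfp960, which sit side by side on chromosome 17, share 77 of 78 bases (98.7%). Those of Zfp981 and Zfp600, in neighbouring clusters on chromosome 4, also share 98.7%, whereas Zfp97 and Zfp748 share 61.5%. Such linkers were found in 206 of the 237 members, 1212 in all, and the commonest spelling made up 12.2% of them. To gauge read sharing, every 50-base window of each member's longest coding transcript was searched for in the transcripts of all other genes. The median member had 1.17% of its windows elsewhere, 72 members had none, 75 had more than 10% and 23 more than 50%. For Zfp97 it was 83.1%, for Zfp960 84.5%, for Zfp600 85% and for Zfp748 0.725%. Not all of the sharing was between members. For Zfp781, Zfp433 and Zfp82 it was 96.3%, 94.2% and 94.4% with any gene, but 0.0249%, 0.642% and 0% with another member. Another gene overlaps 64 of the 237 members on the opposite strand and 43 on the same strand. With the strand setting unknown, reads from an overlapping stretch may not have been kept apart from those of the opposite-strand partner. How much of each member's exons these overlaps cover was not measured.

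Levels were low to moderate. In untreated Ythdc1 control cells the median member stood at 3.22 CPM per kb of exon, with quartiles of 1.65 and 7.08, against a median of 4.4 CPM per kb for the 13783 other protein-coding genes with as many reads. Of the 237, 224 exceeded 1 CPM and 11 exceeded 100 CPM, beside 12343 and 2071 of the 13783 other genes. Both sets were kept for having reads in these libraries, so a large share above 1 CPM follows in part from that rule. The highest per kb were Zfp981 at 62.2, Zfp978 at 54.4, Zfp568 at 53.4, Zfp979 at 51.1 and Zfp985 at 46.5 CPM per kb, 4 of them on chromosome 4. The 10 members with the most reads held 27.7% of the reads of all members.

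Transcription block removed most of this RNA relative to the rest of the library. In control cells at 6 h against 0 h, 197 of 231 members were lower and 5 higher at an adjusted p below 0.05, with a median log2 fold change of −1.59. The background over all 17900 genes tested was 31.7% lower and 33.1% higher, with a median of 0.03. This change went with GC content in members and in other coding genes (Spearman 0.50 and 0.47). Under 40% GC, 73 of 77 members were lower and 1 higher (median −2.08), beside 399 and 19 of 526 other coding genes (median −1.01). At 50% or more, 33 of 51 members were lower and 4 higher (median −0.88), beside 1141 and 4065 of 7604 others (median 0.54). At 3 h against 0 h in control cells, the median was −0.97 and 191 were lower and 6 higher, beside 27.1% lower and 29.3% higher of all genes. In cKO cells at 6 h against 0 h, the median was −1.14 and 182 were lower and 7 higher, beside 31.3% lower and 29.6% higher of all genes. At 3 h against 0 h in cKO cells, the median was −0.64 and 151 were lower and 7 higher, beside 29.8% lower and 29.6% higher of all genes. The summed level of all members was 3329 and 3277 CPM in cKO at 6 h, against 6728 and 6290 CPM in cKO at 0 h. In control cells it was 2415 and 2466 CPM at 6 h, against 6530 and 6241 CPM at 0 h. The groups do not overlap in either genotype. These changes are relative to the other RNA of each library. Scaled to the spike-ins, the median at 6 h was −2.11 in cKO and −2.51 in control, beside −0.96 and −0.88 for all genes. At 3 h that scaling gave −1.50 in control, beside −0.46 for all genes. It turned the cKO value at 3 h round, to a median of 1.19 with 201 members higher and 1 lower. The median of all genes was then 1.86.

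**Figure D1:**
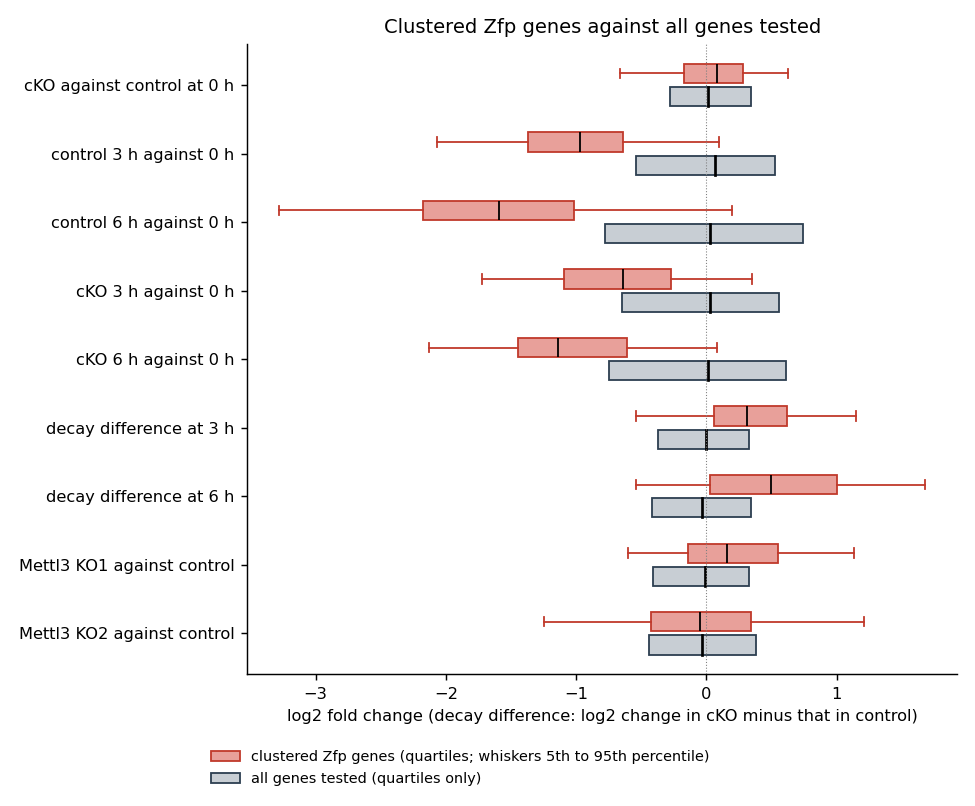
Log2 fold changes (x axis) of the clustered Zfp genes and of all genes tested in 9 comparisons (y axis); boxes show the quartiles with the median as a line, and whiskers, drawn for the members alone, the 5th and 95th percentiles. Medians of members lie at −1.59 for control and −1.14 for cKO at 6 h against 0 h, at 0.50 for the decay difference at 6 h, and near 0 for all genes.

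The 5 largest falls in control cells at 6 h among members averaging at least 50 reads were in Zfp97, Zfp51, Zfp873, Zfp719 and Zfp960, between −3.76 and −3.47, and all of these but Zfp719 carry the KRAB pattern. Zfp719 lies on chromosome 7 (chr7:43579610-43593235, mm10). It was at 4.27 and 5.17 CPM in cKO at 6 h, against 29.2 and 27.3 CPM in cKO at 0 h. In control cells it was at 3.05 and 2.43 CPM at 6 h, against 32.8 and 28.7 CPM at 0 h. Its log2 fold change was −2.52 ± 0.17 in cKO and −3.50 ± 0.19 in control (SE, n = 2 libraries a group; adjusted p 1.6e-15 and 8.79e-19, edgeR). The 6 h libraries lie far below the 0 h libraries in both genotypes. Members with a KRAB pattern had a median of −1.67 in control cells at 6 h (123 of 134 lower), and members without it −1.37 (74 of 97 lower). The solitary Zfp genes, which have no Zfp neighbour within 200 kb, had −0.90 (86 of 133 lower). No test was made between these sets.

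A handful of members went the other way. Zfp692, whose human counterpart ZNF692 is known as a regulator of gluconeogenic genes, was at 63.9 and 77.5 CPM in cKO at 6 h, against 32 and 38 CPM in cKO at 0 h. In control cells it was at 106 and 94.8 CPM at 6 h, against 36.5 and 33.0 CPM at 0 h. Its share of the library was higher at 6 h in every library of both genotypes, by a log2 fold change of 1.04 ± 0.099 in cKO and 1.53 ± 0.094 in control (SE, n = 2; adjusted p 1.31e-11 and 6.53e-17, edgeR). Zfp316 (1.45 ± 0.20), Zfp444 (0.75 ± 0.12) and Zfp771 (0.51 ± 0.16) were also higher in control cells at 6 h (adjusted p 8.43e-08, 1e-06 and 0.00605, edgeR). Scaled to the spike-ins, the values for Zfp444 and Zfp771 turned to −0.17 and −0.41, beside a median of −0.88 for all genes.

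Less of this RNA was lost in cKO than in control cells. The decay difference, defined as the log2 change from 0 h in cKO minus that in control, was tested as an interaction, and a positive value means that cKO kept more. At 6 h it was higher for 63 and lower for 3 of 231 members, with a median of 0.50. Over all genes the median was −0.03, with 9.77% higher and 9.35% lower. For 3 h the test called 48 members higher and 5 lower (median 0.31), beside 11.0% higher and 8.39% lower of all genes. Relative to the other RNA of the library, the median member had 45.5% of its 0 h level left at 6 h in cKO and 33.2% in control. With the same TMM scaling, 16 members were called lower and at least 4-fold down at 6 h in cKO and 72 in control. In control 7.78% of all genes were. Scaled to the spike-ins, the members' medians at 6 h were −2.11 in cKO and −2.51 in control, so these shares and counts depend on the scaling. All 63 members with a higher decay difference had fallen in control cells, with a median of −2.18. Of these, 57 fell in cKO as well, with a median over the 63 of −1.07. The decay difference subtracts the control change, so choosing members by it favours large falls in control.

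**Figure D2:**
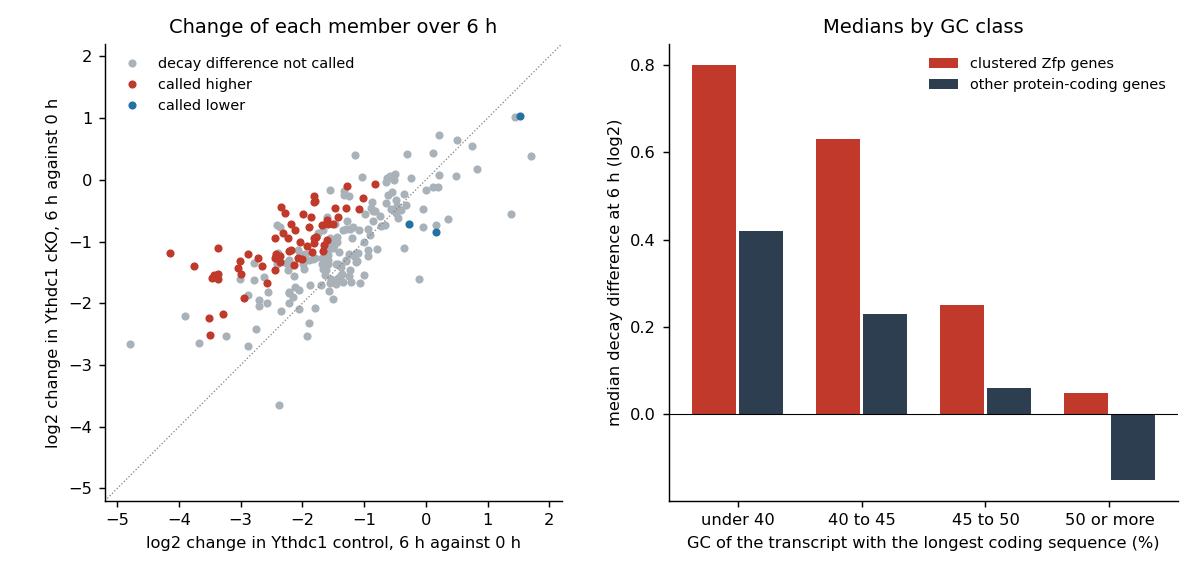
Left, log2 change at 6 h against 0 h of each of 231 members in cKO (y axis) and control (x axis). The dotted line marks equal change and colours mark the call of the decay difference. Of the 231 members, 174 lie above the line. Right, median decay difference at 6 h (log2, bars) by GC class for members and other protein-coding genes; it runs between 0.80 under 40% GC and 0.05 at 50% or more in members.

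Zfp748 had 1 of the 5 highest decay differences at 6 h. It is a KRAB gene with 23 fingers in the chromosome 13 cluster (ENSMUSG00000095432.9, chr13:67538641-67553830, mm10), and its window sharing is below 1%. In cKO cells it was at 61.4 and 54.8 CPM at 0 h, 37.4 and 36.2 CPM at 3 h, and 27.9 and 26.4 CPM at 6 h. In control cells it was at 42.5 and 33.3 CPM at 0 h, 9.18 and 8.58 CPM at 3 h, and 3.16 and 4.04 CPM at 6 h. The groups do not overlap at any time. At 0 h cKO was already higher, by 0.63 ± 0.11 on the log2 scale (adjusted p 2.02e-05, edgeR). The decay difference was 1.42 ± 0.17 at 3 h and 2.25 ± 0.21 at 6 h (SE, n = 2; adjusted p 4.93e-08 and 4.05e-10, edgeR). A gene on the opposite strand overlaps Zfp748.

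The near copies Zfp97 and Zfp960, KRAB genes of 13 fingers on chromosome 17, moved in parallel. Zfp97 (chr17:17121415-17146831) was at 12.5 and 10.8 CPM at 0 h, 7.02 and 8.34 CPM at 3 h and 3.87 and 4.65 CPM at 6 h in cKO. In control cells it was at 11.0 and 12.3 CPM at 0 h, 5.14 and 4.06 CPM at 3 h, and 1.13 and 0.629 CPM at 6 h. Levels overlap before the drug and separate after it, with decay differences of 0.76 ± 0.28 at 3 h and 2.37 ± 0.40 at 6 h (SE, n = 2; adjusted p 0.0474 and 3.36e-05, edgeR). Zfp960 had a decay difference of 1.89 ± 0.36 at 6 h (adjusted p 0.000189, edgeR). Because over 80% of the windows of each recur in other genes, the counting may have split or dropped their reads, and the pair are not independent observations. Zfp977, a KRAB gene on chromosome 7, was at 9.77 and 9.59 CPM in cKO at 6 h, against 2.93 and 4.4 CPM in control, with a decay difference of 1.84 ± 0.26 (adjusted p 1.68e-06, edgeR). At 0 h it was lower in cKO, at 30.3 and 25.1 CPM against 37.0 and 39.9 CPM in control.

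**Figure D3:**
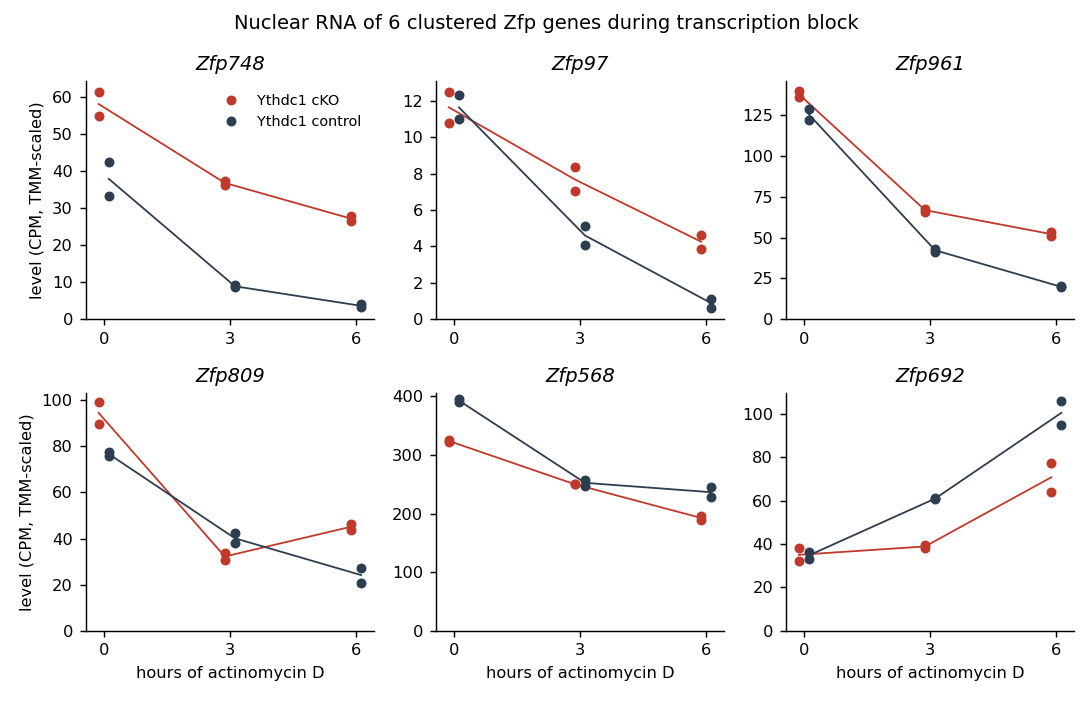
Level in CPM (y axis) of 6 members at 0, 3 and 6 h of actinomycin D (x axis); each point is a library and lines join the means of cKO and control. Zfp748 ends at 27.9 and 26.4 CPM in cKO and 3.16 and 4.04 CPM in control, Zfp568 is lower in cKO at 0 and 6 h and overlaps at 3 h, and Zfp692 is higher at 6 h than at 0 h in both genotypes.

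Members with a known target differed in how they behaved. Zfp809, which recruits TRIM28 to the primer binding site of murine leukaemia viruses, was at 99.3 and 89.6 CPM at 0 h, 33.6 and 30.8 CPM at 3 h and 43.8 and 46.4 CPM at 6 h in cKO. In control cells it was at 77.5 and 75.8 CPM at 0 h, 38 and 42.2 CPM at 3 h, and 20.9 and 27.4 CPM at 6 h. It was lower in cKO at 3 h but higher at 0 and 6 h, with no overlap at any time, and the decay difference was −0.62 ± 0.13 at 3 h and 0.60 ± 0.14 at 6 h (SE, n = 2; adjusted p 0.000485 and 0.00178, edgeR). Spike-in scaling moved the median of all genes at 3 h to 2.36, more than the 3 h value. Zfp568, which silences a placental transcript of Igf2, was at 189 and 196 CPM in cKO at 6 h, against 228 and 245 CPM in control. It was already lower in cKO at 0 h, at 323 and 325 CPM against 396 and 390 CPM, and its decay difference at 6 h was −0.02 ± 0.079 (adjusted p 0.917, edgeR). Zfp445, which helps to maintain imprints, was at 175 and 179 CPM in cKO at 6 h and 137 and 154 CPM in control. Its decay difference was 0.15 ± 0.089 (adjusted p 0.247, edgeR). Zfp932, which represses a class of endogenous retroviruses, had a decay difference of 0.09 ± 0.37 (adjusted p 0.911, edgeR), and 55.5% of its windows are shared. Zfp961, a KRAB gene on chromosome 8, was at 51.1 and 53.2 CPM in cKO at 6 h, against 19.5 and 20.1 CPM in control. Its decay difference was 1.27 ± 0.11 (adjusted p 1.99e-10, edgeR), and it overlaps another gene on each strand. Among further members known from other work, the decay difference at 6 h was higher for Zfp26 (1.03 ± 0.13) and Zfp459 (0.80 ± 0.17), with adjusted p of 1.37e-07 and 0.000769 in edgeR. It did not pass for Zfp456 (2.13 ± 0.90), Zfp429 (1.01 ± 0.58), Zfp617 (0.43 ± 0.30), Zfp13 (0.27 ± 0.19), Zfp213 (0.26 ± 0.26) and Zfp263 (−0.00 ± 0.13). Zfp456 had few reads, at 1.63 and 0.46 CPM in cKO at 6 h against 0.113 and 0.18 CPM in control.

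The 3 members with a lower decay difference at 6 h were Zfp688 (−1 ± 0.34), Zfp692 (−0.49 ± 0.14) and Zfp110 (−0.43 ± 0.15), with adjusted p of 0.0319, 0.00942 and 0.0488 in edgeR. Zfp110, known as an interactor of the p75 neurotrophin receptor, was at 47.6 and 38.8 CPM in cKO at 6 h, against 44.4 and 56.5 CPM in control, so the groups overlap. The calls of Zfp688, Zfp692 and Zfp110 were lost under 7, 6 and 14 of 20 alternatives. On the higher side Zfp534, a KRAB gene on chromosome 4 with 70.4% shared windows, was at 25.2 and 22.5 CPM in cKO at 6 h, against 10.4 and 7.19 CPM in control. Its decay difference of 1.77 ± 0.45 (adjusted p 0.0383, edgeR) lost its call when any of 10 libraries was left out, at values of 1.51 to 2.04.

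The decay difference was spread over many clusters. In the chromosome 13 cluster between Zfp712 and Zfp273 (chr13:67038596-67827002), 20 of 21 members tested were lower in control at 6 h, 10 had a higher decay difference and the median was 0.80. Other protein-coding genes of chromosome 13 had a median of 0.09. In the chromosome 17 cluster between Zfp871 and Zfp101 (chr17:32765496-33394641), 7 of 12 were higher with a median of 0.84, and in the cluster between Zfp677 and Zfp946 on that chromosome 4 of 18 were, with a median of 0.53. The 15 members of the chromosome 7 cluster between Zfp84 and Zfp146, which holds Zfp568, had a median of 0.16, and the 8 between Zfp553 and Zfp629 had −0.21. By size, 37 of 147 members in clusters of 5 or more were higher, 17 of 44 in clusters of 3 or 4, and 9 of 40 in the rest. Among members with a KRAB pattern 44 of 134 were higher with a median of 0.67, and among those without it 19 of 97 with a median of 0.26. Solitary Zfp genes had 29 of 133 higher and a median of 0.11.

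The difference followed GC content, within the members and outside them. Among members under 40% GC, 30 of 77 had a higher decay difference with a median of 0.80, and among members of 50% or more, 3 of 51 with a median of 0.05. Other protein-coding genes had medians of 0.42 and −0.15 in the same classes, with 176 of 526 and 346 of 7604 higher. Between 40 and 45% GC, 25 of 67 members and 553 of 2202 other coding genes were higher. Between 45 and 50%, 5 of 36 members and 474 of 3439 other coding genes were, so the shares of called genes were close outside the 40 to 45% class. In each of the 4 GC classes the members' median was above that of other coding genes. The Spearman correlation of GC with the decay difference was −0.42 across members and −0.34 across other coding genes. With the number of fingers it was 0.15, with coding length 0.03 and with GGACT per kb −0.19. These are correlations across genes, which are not independent replicates.

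Other library properties moved with these results. Mitochondrial transcripts, which mark cytosolic RNA in a nuclear preparation, summed to 7960 to 8020 CPM in cKO at 6 h, against 2250 to 2260 CPM in control. At 0 h the sums were 9830 to 9850 CPM in cKO and 7500 to 7920 CPM in control. The transcripts did not move together. In cKO mt-Co1 was at 5940 and 6280 CPM at 0 h and 7450 and 7520 CPM at 6 h. There mt-Nd1 went from 2420 and 2260 to 306 and 303 CPM, and mt-Cytb from 1490 and 1290 to 207 and 194 CPM. Of the neuroectoderm markers, Nes made up most of a sum of 26.6 to 27.6 CPM in cKO and 84.1 to 85.8 CPM in control at 6 h, with 4 of the 5 markers averaging under 1 CPM in each group. Fibroblast feeder markers summed to 28.7 to 31.1 CPM in cKO at 6 h, against 21.5 to 22.0 CPM in cKO at 0 h. In control they summed to 49.0 to 50.1 CPM at 6 h, against 15.1 to 16.2 CPM at 0 h, with 6 of the 10 markers under 1 CPM in each group. Reads that the counter assigned to no gene were 49.72 to 53.54% of those listed at 0 h and 18.02 to 24.53% after the drug, over both genotypes. Their part in these results was not tested. Members with at most 10% shared windows had 40 of 160 higher with a median of 0.41, and members with no gene on the opposite strand 45 of 168 with a median of 0.52, both subsets chosen after the values were seen. Scaled to the spike-ins 60 members were higher at 6 h, and without the cKO libraries of 3 h, a setting also chosen after seeing the data, 61 were. At 3 h the spike-in scaling gave 226 of 231 higher (median 2.67, beside 2.36 for all genes), so the size of the 3 h difference depends on the scaling.

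The genotypes were also compared directly at each time. Before the drug 27 members were higher and 16 lower in cKO, with a median of 0.08, beside 13.5% higher and 15.8% lower of all genes. At 3 h, with a median of 0.34, 92 were higher and 15 lower, beside 22.3% and 20.7% of all genes. At 6 h, with a median of 0.59, 107 were higher and 15 lower, beside 19.7% and 22.7% of all genes. The 0 h counts, 11.7% and 6.93% of members, lie below the background share. They depend on single libraries: without control replicate 2 they were 9 higher and 9 lower, without control replicate 1 9 were lower, without cKO replicate 1 16 were higher, and without cKO replicate 2 7 were lower. DESeq2 called 14 higher and 10 lower at 0 h, and spike-in scaling 5 higher and 82 lower (median −0.29, beside −0.35 for all genes). Under spike-in scaling 228 were higher and 0 lower at 3 h (median 2.32, beside 2.00 for all genes). At 6 h 67 were higher and 36 lower under that scaling (median 0.16, beside −0.44 for all genes).

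Single genes nevertheless stood apart before the drug. Zfp560, a KRAB gene on chromosome 9, was at 26.4 and 24.2 CPM in cKO, against 14.5 and 12.1 CPM in control, a log2 fold change of 0.94 ± 0.15 (SE, n = 2; adjusted p 8.42e-06, edgeR). Zfp52 was at 11.6 and 8.14 CPM in cKO, against 3.79 and 5.41 CPM in control (1.07 ± 0.23, adjusted p 0.000499, edgeR). Its neighbour Zfp948 was at 11.8 and 11.5 CPM in cKO, against 6.17 and 6.40 CPM in control (0.89 ± 0.20, adjusted p 0.000584, edgeR). On the lower side, Zfp819, a TRIM28-binding repressor of retroviral elements in pluripotent cells, was at 23.6 and 22.1 CPM in cKO, against 37.5 and 39.0 CPM in control (−0.74 ± 0.14, adjusted p 6.79e-05, edgeR). Zfp566 was at 6.29 and 6.02 CPM in cKO, against 13.1 and 12.4 CPM in control (−1.05 ± 0.23, adjusted p 0.00057, edgeR). These 5 genes were picked among members whose libraries do not overlap, so the lack of overlap is a condition of the choice and not a result. Also higher were Zfp871 (1 ± 0.073) and Zfp235 (0.76 ± 0.23), and lower Zfp771 (−0.74 ± 0.19), Zfp985 (−0.73 ± 0.18) and Zfp787 (−0.71 ± 0.20), with adjusted p of 2.45e-13, 0.0116, 0.00204, 0.0181 and 0.00687 in edgeR. The calls of Zfp235, Zfp985 and Zfp787 were lost when single libraries of 0 h were left out, at 0.54 to 0.69 for Zfp235, −0.82 to −0.66 for Zfp985 and −0.64 for Zfp787, and that of Zfp235 also with DESeq2 and with spike-in scaling (0.39).

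**Figure D4:**
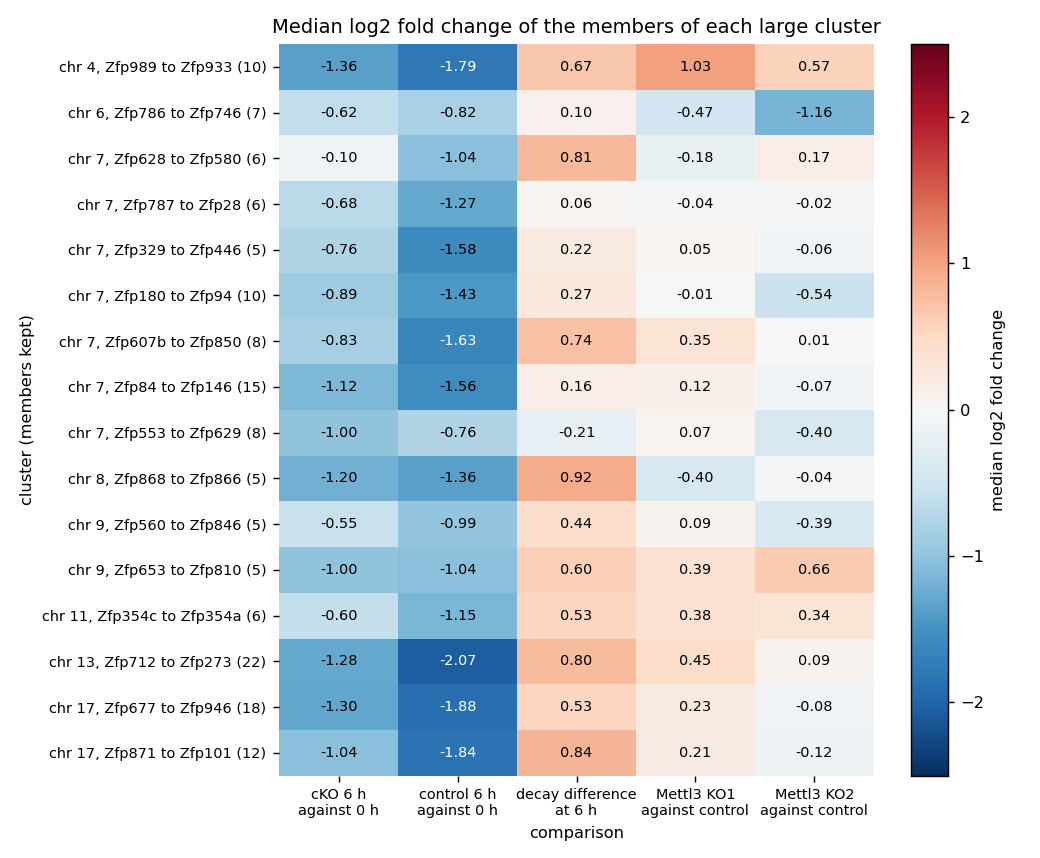
Median log2 fold change (colour and printed value) of the members tested in each of the 16 clusters of 5 or more (rows, by chromosome and by the first and last member, with the number of members) in 5 comparisons (columns). All 16 clusters are negative at 6 h against 0 h in both genotypes, 15 are positive for the decay difference, and in the Mettl3 comparisons the chromosome 4 cluster is highest in KO1 (1.03) and the chromosome 6 cluster lowest in KO2 (−1.16).

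In the Mettl3 experiment the members moved by chromosome. In KO1 95 of 236 members were higher and 36 lower than in control, with a median of 0.16, beside 23.9% higher and 22.2% lower of all 21802 genes tested. In KO2 the median was −0.05, with 65 members higher and 74 lower, beside 24.4% higher and 26.4% lower of all genes. KO1 and KO2 share their control libraries. Tested against each other, KO1 exceeded KO2 for 116 members and lay below it for 22 (median 0.25), beside 24.5% higher and 21.6% lower of all genes. Other protein-coding genes of chromosomes 4, 6 and 17 were also higher in KO1 than in KO2, with medians of 0.21, 0.4 and 0.23. Of the 19, 13 and 37 members there, 12, 11 and 23 were higher. Under spike-in scaling the comparison of KO1 with KO2 gave 40 members higher and 87 lower, with a median of −0.13, beside −0.38 for all genes. KO2 against control gave 156 higher and 21 lower, with a median of 0.52, beside 0.53 for all genes. The median of all genes thus shifted with that of the members.

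Chromosome 4 carried the largest rise. Its 19 members, 18 of them with the KRAB pattern in 4 neighbouring clusters (chr4:145510759-147848366), summed to 2540 and 2530 CPM in KO1 and 2020 and 2010 CPM in KO2, against 1170 and 1330 CPM in control. In KO1 18 of the 19 were higher with a median of 1.06, and in KO2, with a median of 0.73, 15 were higher and 2 lower. Other protein-coding genes of chromosome 4 had medians of 0.03 in KO1 and −0.21 in KO2. In the cluster of 10 between Zfp989 and Zfp933 (chr4:146971976-147848366), 10 of 10 were higher in KO1 and 8 in KO2, and 1, Zfp933, was lower in KO2. In the cluster of 3 between Zfp992 and Zfp993 the sum was 315 and 316 CPM in KO1 and 352 and 343 CPM in KO2, against 106 and 106 CPM in control. Mouse studies in which KRAB zinc finger clusters were deleted, that of chromosome 4 among them, link them to the silencing of endogenous retroviruses. Members outside chromosome 4 summed to 5660 and 5610 CPM in KO1 and 4940 and 4980 CPM in KO2, against 4810 and 5000 CPM in control.

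**Figure D5:**
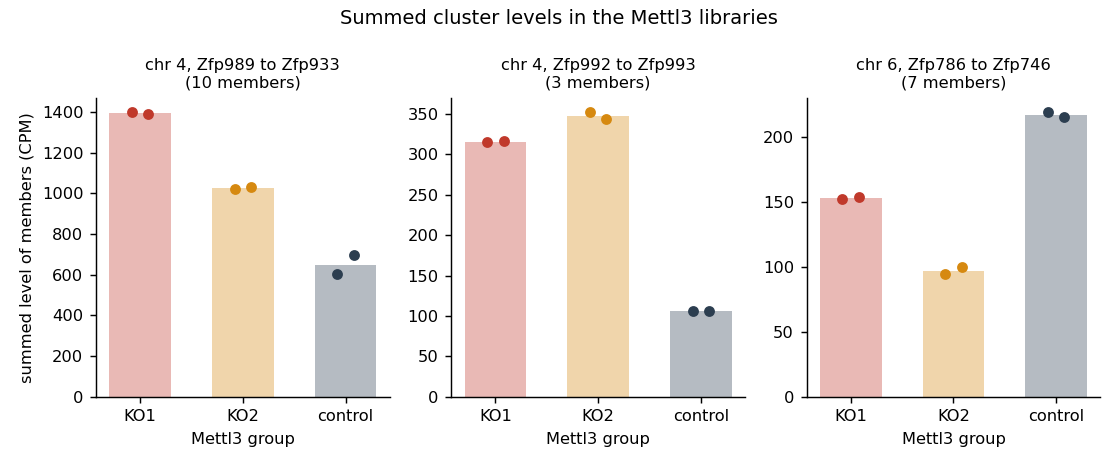
Summed level in CPM (y axis) of the members of 3 clusters in the Mettl3_KO1, Mettl3_KO2 and Mettl3_Control libraries (x axis); bars are means and points the 2 libraries. Both chromosome 4 clusters are higher in KO1 and KO2 than in control, and the chromosome 6 cluster is lower in both.

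Zfp981 (ENSMUSG00000056300.14, chr4:146502027-146539395) was at 183 and 193 CPM in KO1 and 229 and 217 CPM in KO2, against 56.0 and 57.1 CPM in control. Its log2 fold change was 1.73 ± 0.045 in KO1 and 1.98 ± 0.045 in KO2 (SE, n = 2; adjusted p 1.27e-48 and 1.31e-52, edgeR). Zfp600, whose finger unit is shown beside that of Zfp981, was at 151 and 149 CPM in KO1 and 137 and 131 CPM in KO2, against 43.9 and 47.2 CPM in control. That is 1.72 ± 0.049 in KO1 and 1.55 ± 0.050 in KO2 (adjusted p 1.28e-45 and 1.21e-42, edgeR). Knockout and control libraries are far apart for both. Genes on the opposite strand overlap both, 3 for Zfp981 and 2 for Zfp600. Shared sequence limits which gene of the block can be credited: in the cluster of 10 the median member had 63.9% of its windows elsewhere. Zfp982, with 11.5% shared, was at 39.4 and 35.9 CPM in KO1 and 63.7 and 63.9 CPM in KO2, against 20.5 and 24.6 CPM in control. Rex2, a zinc finger gene of the same block whose name keeps it out of the rule, was higher too, by 1.67 ± 0.055 in KO1 and 1.41 ± 0.056 in KO2 (adjusted p 3.8e-20 and 1.96e-18, edgeR). Over all members, those with more than 10% shared windows were higher in 45 of 75 in KO1 and 33 of 75 in KO2, and those with less in 50 and 32 of 161.

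Some upstream sequences of this block are also near copies: of 21 pairs in the cluster of 10 with a RefSeq promoter, 4 were over 80% identical, with a median of 52.8%. The closest pair, Zfp988 and Zfp534, is shown by the 250 bases before the annotated start (RefSeq, GRCm38.p6; chr4:147305354-147305603 on the + strand and chr4:147702632-147702881 on the − strand), with the CCAAT motif, here read on the other strand, in capitals.
Zfp988: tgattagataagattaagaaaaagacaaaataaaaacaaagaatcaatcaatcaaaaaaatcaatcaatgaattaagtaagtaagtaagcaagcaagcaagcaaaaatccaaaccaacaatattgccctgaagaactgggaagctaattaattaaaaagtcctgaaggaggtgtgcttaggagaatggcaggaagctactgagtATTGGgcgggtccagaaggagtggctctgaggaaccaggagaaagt
Zfp534: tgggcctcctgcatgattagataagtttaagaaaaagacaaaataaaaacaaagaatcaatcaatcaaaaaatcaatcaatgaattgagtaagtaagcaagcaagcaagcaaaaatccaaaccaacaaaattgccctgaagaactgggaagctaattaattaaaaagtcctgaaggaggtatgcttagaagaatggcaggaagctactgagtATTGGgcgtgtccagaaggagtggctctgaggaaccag
Aligned to each other they are 92.8% identical, and Zfp985 and Zfp979 are 84.4% identical. Zfp534 was at 314 and 308 CPM in KO1 and 200 and 205 CPM in KO2, against 145 and 164 CPM in control (1.01 ± 0.040 and 0.39 ± 0.040, adjusted p 9.12e-35 and 1.32e-13, edgeR). Promoters from 250 bases before to 50 after the start were matched for 201 members. CCAAT on either strand occurred in 53.7% of them and in 37.9% of all 27025 promoters, TATAAA in 4.98% and 14.2%, and GGGCGG in 39.8% and 35.9%. A match is a description of the letters and not a bound site.

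Chromosome 6 carried the largest fall. The cluster of 7 between Zfp786 and Zfp746 (chr6:47819266-48086593), whose members lack the KRAB pattern, summed to 152 and 154 CPM in KO1 and 94.3 and 100 CPM in KO2, against 219 and 215 CPM in control. In KO1 5 of 7 were lower with a median of −0.47, and in KO2 7 of 7 with a median of −1.16. Zfp212 was at 19.0 and 16.6 CPM in KO1 and 8.86 and 9.40 CPM in KO2, against 32.7 and 27.2 CPM in control (−0.74 ± 0.095 and −1.71 ± 0.11; adjusted p 2.27e-10 and 9.73e-25, edgeR). Zfp467, studied in bone and fat cell differentiation, was at 1.85 and 2.12 CPM in KO1 and 1.27 and 0.626 CPM in KO2, against 7.29 and 6.50 CPM in control (−1.80 ± 0.23 and −2.84 ± 0.27; adjusted p 3e-10 and 1.33e-15, edgeR). In KO2 the whole chromosome stood lower: 404 of 708 other protein-coding genes of chromosome 6 were lower and 92 higher, with a median of −0.39, and all 13 members were lower with a median of −1.16. In KO1 the other genes of chromosome 6 had a median of 0.01. Chromosome 8 stood lower in both lines: of 785 other protein-coding genes, 537 were lower and 29 higher in KO1 (median −0.51), and 511 were lower and 61 higher in KO2 (median −0.44). Of the 9 members there, 4 were lower and 0 higher in KO1 (median −0.25), and 3 were lower and 2 higher in KO2 (median −0.04). Chromosome 17 stood lower in KO2: of 699 other protein-coding genes, 330 were lower and 105 higher (median −0.21). In KO1 164 of them were lower and 205 higher (median 0.05). Of the 37 members there, 13 were lower and 7 higher in KO2 (median −0.09). A difference in the copy number of chromosomes 6, 8 or 17 in a line and a change in the RNA of their genes cannot be told apart here.

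Away from chromosomes 4 and 6, 77 of 204 members were higher and 27 lower in KO1 (median 0.14), and 50 were higher and 59 lower in KO2 (median −0.05). This set still holds the members of chromosomes 8 and 17, whose other protein-coding genes stood lower in KO2 (medians −0.44 and −0.21). Zfp809 was at 76.3 and 78.9 CPM in KO1 and 79.3 and 78.7 CPM in KO2, against 40.6 and 39.0 CPM in control (0.96 ± 0.057 and 0.99 ± 0.057; adjusted p 1.16e-25 and 2.31e-26, edgeR). Zfp445 was also higher in both, by 0.41 ± 0.040 and 0.43 ± 0.041 (adjusted p 2.01e-14 and 2.54e-15, edgeR). Zfp568, at 362 and 361 CPM in KO1 and 377 and 378 CPM in KO2 against 411 and 413 CPM in control, was slightly lower (−0.19 ± 0.032 and −0.13 ± 0.032). Zfp773 on chromosome 7 had the largest rise among members averaging 50 reads, at 8.52 and 9.23 CPM in KO1 and 12.8 and 12.1 CPM in KO2, against 2.1 and 2.8 CPM in control. Zfp334 on chromosome 2 was at 9.14 and 8.76 CPM in KO1 and 4.76 and 4.88 CPM in KO2, against 16.7 and 14.6 CPM in control. For each of these genes the libraries of either knockout lie outside the range of the control libraries. For Zfp773 and Zfp334 this was a condition of their being named. Of the other members with the largest changes, Zfp978 (1.54 in KO1), Zfp986 (1.59 in KO2) and Zfp229 (1.49 in KO1) were higher, and Zfp956 (−1.38 in KO1), Zfp9 (−1.29 in KO1), Zfp94 (−1.60 in KO2) and Zfp248 (−1.80 in KO2) were lower. Zfp978 and Zfp986 lie on chromosome 4, with 75.9% and 86.9% shared windows, and Zfp956, Zfp9 and Zfp248 on chromosome 6. Among the members known from other work, Zfp459 and Zfp819 were higher in KO1, by 0.99 ± 0.092 and 0.96 ± 0.083 (adjusted p 1.67e-15 and 3.67e-17, edgeR), and did not pass in KO2 (0.08 and 0.13). Zfp932 was higher in both (0.54 ± 0.099 in KO1 and 0.33 ± 0.10 in KO2), Zfp263 lower in both (−0.36 ± 0.050 and −0.48 ± 0.050), and Zfp213 lower in KO2 (−1.36 ± 0.17).

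GC content went with the Mettl3 values as well, with a Spearman correlation of −0.60 across members in KO1 and −0.45 in KO2, against −0.17 and −0.14 across other coding genes. Members under 40% GC had a median of 0.61 in KO1 and 0.27 in KO2, and members of 50% or more −0.16 and −0.37. Fibroblast feeder markers summed to 256 to 257 CPM in KO1 and 680 to 683 CPM in KO2, against 247 to 266 CPM in control, led by Col1a1 and Col1a2, with 3 of the 10 markers (Twist2, Lum and Dcn) under 1 CPM in each group. Mitochondrial transcripts summed to 7920 to 7970 CPM in KO1 and 8190 to 8470 CPM in KO2, against 3850 to 4550 CPM in control, and neuroectoderm markers to 58.4 to 64.7 CPM in KO1 and 90.8 to 99.0 CPM in KO2, against 109 to 115 CPM in control. Their part in the Mettl3 results was not tested. The Ythdc1 experiment shares no library with this one. Of its 63 members with a higher decay difference, 41 (65.1%) were higher and 5 lower in KO1. In KO2 31 (49.2%) of them were higher and 13 lower. Of the other members, 32.3% were higher in KO1 and 20.4% in KO2, beside 23.9% and 24.4% of all genes. The 63 also had the lower GC, with a median of 40% against 43.9%, and the correlation of the decay difference with the KO1 value over 230 members was weak (Pearson r 0.21, Spearman 0.29).

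The partners through which KRAB zinc finger proteins act were described from a list of 53 corepressor genes. In cKO at 0 h the median was −0.11, with 7 (13.2%) higher and 20 (37.7%) lower, beside 13.5% and 15.8% of all genes. The decay difference at 6 h was higher for 14 (26.4%) and lower for 10 (18.9%), with a median of 0.13, beside 9.77% and 9.35%. In KO1 31 (58.5%) were higher and 8 (15.1%) lower, beside 23.9% and 22.2%. In KO2 12 (22.6%) were higher and 24 (45.3%) lower, beside 24.4% and 26.4%. Trim28, the corepressor that KRAB domains recruit, was at 749 and 859 CPM in cKO at 0 h, against 1140 and 1180 CPM in control (−0.53 ± 0.050, adjusted p 1.1e-09, edgeR). At 6 h it was at 1550 and 1700 CPM in cKO, against 2890 and 2940 CPM in control, and its decay difference was −0.31 ± 0.070 (adjusted p 0.00185, edgeR). The groups do not overlap at either time. Setdb1, the H3K9 methyltransferase, differed by 0.01 ± 0.058 in cKO at 0 h (adjusted p 0.932, edgeR) and was higher in KO1 by 0.19 ± 0.041 and in KO2 by 0.37 ± 0.041 (adjusted p 8.39e-05 and 8.6e-13, edgeR). Resf1, a SETDB1 partner in retroviral silencing, had a decay difference of 0.77 ± 0.094 at 6 h (adjusted p 1.16e-07, edgeR). Chd4, the remodeller of the NuRD complex, had one of −0.66 ± 0.058 (adjusted p 1.23e-10, edgeR). Atrx, a remodeller that deposits histone H3.3 with DAXX, was higher by 1.26 ± 0.027 in KO1 and 1.25 ± 0.027 in KO2 (adjusted p 5.61e-54 and 7.32e-54, edgeR). Atf7ip, which stabilises SETDB1, had −0.29 ± 0.038 and −0.45 ± 0.039 (adjusted p 4.38e-10 and 1.54e-17, edgeR). It lies on chromosome 6, as do Resf1 and Chd4. Other protein-coding genes inside the clusters of 5 or more had 17 of 39 (43.6%) lower and 13 (33.3%) higher in control cells at 6 h and a median of −0.29, beside 31.7% lower and 33.1% higher of all genes. In the Mettl3 experiment they had medians of 0.27 in KO1 and 0.09 in KO2.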

How the data were processed

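The deposited values are counts of reads per gene, made by the authors. Per the submitters' processing notes, reads were processed with CASAVA, trimmed with Trimmomatic 0.38 and aligned with HISAT2 2.1.0 to mm10, and HTSeq is named; the strand setting and gene annotation are not stated in the sources used. The counts were made from ribosome-depleted nuclear RNA with spike-ins, per the labels' protocols. Members were found from GENCODE M21; members, lists and subsets were chosen with earlier results of these data known. edgeR 4.0.16 in R 4.3.3 fitted the 12 Ythdc1 and the 6 Mettl3 libraries apart, with TMM scaling, its default low-count filter, 1 coefficient per group, and the robust quasi-likelihood F test with Benjamini-Hochberg adjustment over 17900 and 21802 genes; a call is an adjusted p below 0.05. Summary lines of the counter and 92 spike-ins stayed out of library sizes; reads outside genes were 18.02 to 53.54% of those counted. Of the 237 members, 231 and 236 passed the filter. CPM are TMM-scaled; CPM per kb uses the union of exons. The spread between libraries was 6.52% and 4.09% (biological coefficient of variation). Genes named are, per comparison, the up to 5 highest and 5 lowest members called with a mean of at least 50 counts and, except for the decay difference, no overlap between groups, plus members of known role, those highest per kb, and further ones chosen after their values were seen (Zfp988, Rex2). On simulated counts, 98% of 100 genes changed 2-fold and 100% of 100 changed 4-fold were recovered in cKO against control at 0 h, with 16 calls among unchanged genes. The changed genes were drawn from well-read ones and every gene had the same spread, so recovery of members with few reads was not gauged. Alternatives were other scalings, DESeq2 1.42.0, other filters, a replicate block and leaving out each library. Figures were drawn with matplotlib 3.10.9.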

Additional observations from a re-analysis of the deposited data

Results flagged for a closer look

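The difference between cKO and control in the change from 0 h passed the interaction test for 48 members higher and 5 lower at 3 h, and for 63 higher and 3 lower at 6 h, beside 11.0% higher and 8.39% lower of all genes at 3 h and 9.77% and 9.35% at 6 h. Among the members named for it at 6 h, the value was 2.37 for Zfp97, 2.25 for Zfp748, 1.89 for Zfp960, 1.84 for Zfp977 and 1.77 for Zfp534, and it was −1 for Zfp688, −0.49 for Zfp692 and −0.43 for Zfp110, all on the log2 scale. Zfp809 had opposite signs at 3 h (−0.62) and 6 h (0.60). The 2 Mettl3 knockouts, set against each other, differed for 116 members higher and 22 lower in KO1, beside 24.5% and 21.6% of all genes. Under spike-in scaling there were 40 higher and 87 lower (median −0.13, beside −0.38 for all genes). Other protein-coding genes of chromosomes 4, 6 and 17 were also higher in KO1 than in KO2 with TMM (medians 0.21, 0.4 and 0.23).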

How the results depend on the processing

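Counts of members called were within 1.5 times the value given under most alternatives, 394 of 432 recomputed counts, and those that were not are listed here; their causes were not tested. Under spike-in scaling, cKO against control gave 5 higher and 82 lower at 0 h (median −0.29), 228 higher and 0 lower at 3 h, and 67 higher and 36 lower at 6 h. It gave 1 and 2 higher in control at 3 and 6 h, 201 higher and 1 lower in cKO at 3 h (median 1.19), 1 higher in cKO at 6 h, and 226 higher and 0 lower for the decay difference at 3 h. It gave 18 lower in KO1, 156 higher and 21 lower in KO2 (median 0.52), and 40 higher and 87 lower in KO1 against KO2 (median −0.13). This scaling put the median of all genes at 2.00 for cKO against control at 3 h (0.01 with TMM), at 1.86 for cKO at 3 h against 0 h (0.03 with TMM), and at −0.09 for the decay difference at 6 h (−0.03 with TMM). That median was −0.35 for cKO against control at 0 h and −0.44 at 6 h. Against 0 h it was −0.46 and −0.88 in control at 3 and 6 h, and −0.96 in cKO at 6 h. For the decay difference at 3 h it was 2.36, for KO1 0.17, for KO2 0.53 and for KO1 against KO2 −0.38. Spike-in scaling reversed Zfp444 (−0.17) and Zfp771 (−0.41) in control at 6 h. DESeq2's Wald test gave 14 higher and 10 lower at 0 h, 4 higher in cKO at 3 h, and 1 lower for the decay difference at 6 h; library size alone and no filter each gave 0 lower for it, with edgeR, where 87 and 90 were higher.

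Leaving out 1 library at a time gave 9 to 29 higher and 7 to 24 lower at 0 h, 7 to 16 lower at 3 h and 8 to 16 lower at 6 h for cKO against control. It gave 30 to 57 higher and 3 to 7 lower for the decay difference at 3 h, and 47 to 72 higher and 1 to 3 lower at 6 h. The low ends at 3 h, 31 and 30, came without cKO replicate 2 and without control replicate 2 of that time. Without cKO replicate 2 of the time compared, 7 were lower at 3 h and 8 at 6 h. The median in KO2 ran from −0.10 without Mettl3_Control replicate 1 to 0.02 without replicate 2. Replicate numbers did not pair the libraries (correlations of −0.034 to 0.043), and a replicate block gave 73 higher and 2 lower for the decay difference at 6 h and 94 higher and 34 lower in KO1. Zfp534 lost its call in 10 of the leave-one-out fits. With 2 libraries a group, small changes of members near 1 CPM could not be resolved.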
